A study of Mus musculus with 4 samples.

Results

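The genes described here are the forkhead box O (FoxO) transcription factors Foxo1, Foxo3 and Foxo4 and the F-box ubiquitin ligase subunits Fbxo32 (atrogin-1) and Fbxo30 (MUSA1), taken from the count table by gene symbol. They are 5 of the 13825 genes in that table, and all 5 were measured in all 4 libraries. Trim63 (MuRF1) and Foxo6 were not analysed here. The libraries came from tibialis anterior (TA) muscle of adult male mice at 14 days after the sciatic nerve of one hind limb was cut, and the other limb gave the sham muscle. WT mice gave the sham group WS and the denervated group WD, and FGF21KO mice gave the sham group KS and the denervated group KD. FGF21KO mice lack the growth factor FGF21 in the whole body, so the deletion is not limited to muscle, and both FGF21KO groups carry it. The RNA of 4 muscles was pooled into 1 library per group, so no group has replicates. According to the study's methods the control limb had the same operation without nerve transection, whereas the series' design text describes a control leg that kept its nerve and names no operation on it, and the sample titles call it sham.

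FoxO factors switch on genes for protein breakdown and autophagy in skeletal muscle. Insulin and IGF1 signalling through AKT phosphorylates them, which keeps them bound to 14-3-3 proteins outside the nucleus, and loss of that signal lets them enter it. Fbxo32 and Fbxo30 are counted among the FoxO target genes of wasting muscle. Their products are the substrate-recognising parts of SCF ubiquitin ligases, complexes of SKP1, CUL1, RBX1 and an F-box protein that mark other proteins for the proteasome.

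Library totals over the genes in the table ran from 25249879 counts in WS to 34141303 in KS. Mitochondrially encoded genes held 27.33% (WS) and 30.8% (KS) of the sham counts, against 19.65% (WD) and 20.79% (KD) after denervation. Levels are given as CPM, counts relative to the library total, after scaling by edgeR's TMM factors, which hold most genes level between libraries. With scaling to total counts only, the median gene lay 0.29 higher in WD than in WS and 0.36 higher in KD than in KS on the log2 scale. Changes below are therefore read against the bulk of the genes, and values on total counts are given for the 5 genes, the lists and the calls that this scaling ends. Of 8 genes listed for checking the labels, Ncam1 was tested and the others were not analysed here. Ncam1, a neural cell adhesion molecule known to spread over denervated fibres, stood at 10.1 CPM in WS and 7.91 CPM in KS. It stood at 102 CPM in WD and 107 CPM in KD, so the surgery labels were matched by this gene. Fgf21 was not analysed here, and the genotype labels were not checked by it. Of 7 myofibre markers Myh1 was tested and the others were not analysed here. Myh1 stood at 24262.5 CPM in WS, 21596.6 CPM in KS, 15667.3 CPM in WD and 17539.5 CPM in KD.

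The denervation effect was tested with genotype as a second term, using all 4 libraries in edgeR's quasi-likelihood test and adjusting over 13084 genes by Benjamini-Hochberg. A gene was called at an adjusted p-value below 0.05 with a log2 fold change of at least 1 in either direction. The test measures the spread between these pooled libraries and not between mice, and it rests on 1 residual degree of freedom. That spread is estimated partly from all genes together, and each SE was derived from the fold change and the test statistic. By this rule Foxo1, Fbxo32 and Fbxo30 were higher after denervation, Foxo4 was lower at an adjusted p-value below 0.05 but short of the fold threshold, and Foxo3 did not pass. Of the 5 genes, 3 were called higher, beside 6.8% of all genes tested, and 0 were called lower, beside 6.15%. At the p-value alone 3 were higher and 1 was lower, where 26.4% and 26.6% of all genes were. The median log2 fold change was 1.22 over the 5 genes and 0.01 over all genes. Since the material is whole muscle, fewer cells of a type and less RNA per cell cannot be told apart.

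Foxo1, the family member tied to fasting metabolism and to atrophy genes, stood at 22.5 CPM in WS (523 counts), 23.9 CPM in KS (710 counts), 57.5 CPM in WD (1874 counts) and 69.8 CPM in KD (2158 counts). The highest library was KD and the sham libraries lay close together, with no overlap between sham and denervated. The denervation effect was a log2 fold change of 1.45 ± 0.09 (SE), or 2.74-fold, with an adjusted p of 2.6e-11 (edgeR's quasi-likelihood test). Within genotypes the log2 ratio was 1.35 for WD over WS (95% counting interval 1.21 to 1.49) and 1.54 for KD over KS (1.42 to 1.67). All intervals on single ratios cover counting error only. On total counts the log2 fold change was 1.77, with single ratios of 1.63 in WT and 1.90 in FGF21KO. Over all genes, 452 of 13084 had a larger positive denervation effect.

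Foxo3, a FoxO factor that also drives autophagy genes, stood at 33.1 CPM in WS (770 counts), 32.6 CPM in KS (969 counts), 33.5 CPM in WD (1094 counts) and 34.4 CPM in KD (1064 counts). The 4 libraries lay within their counting error of each other. The log2 fold change was 0.05 ± 0.09 (SE), with an adjusted p of 0.668 (edgeR's quasi-likelihood test). The log2 ratio was 0.02 for WD over WS (−0.11 to 0.15) and 0.08 for KD over KS (−0.05 to 0.20). On total counts alone the log2 fold change was 0.37, with an adjusted p of 0.0044, close to the shift of the median gene (0.33) under that scaling, and the single ratios were 0.30 and 0.43.

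Foxo4, a further FoxO factor under AKT control, stood at 240 CPM in WS (5588 counts), 227 CPM in KS (6744 counts), 130 CPM in WD (4242 counts) and 117 CPM in KD (3611 counts). Both denervated libraries lay below both sham libraries. The log2 fold change was −0.92 ± 0.07 (SE), a level 0.528 times that of sham muscle, with an adjusted p of 1.0e-09 (edgeR's quasi-likelihood test). The log2 ratio was −0.88 for WD over WS (−0.94 to −0.83) and −0.96 for KD over KS (−1.02 to −0.90). Its size missed the fold threshold of 1 in both genotypes, and on total counts alone it was −0.60 with an adjusted p of 7.9e-06 (single ratios −0.60 in both genotypes).

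Fbxo32 encodes atrogin-1, whose known substrates include the translation factor eIF3f and MyoD. It stood at 291 CPM in WS (6780 counts), 270 CPM in KS (8028 counts), 639 CPM in WD (20840 counts) and 664 CPM in KD (20540 counts). Sham and denervated libraries did not overlap, and the 2 denervated libraries differed less from each other than from either sham library. The log2 fold change was 1.22 ± 0.07 (SE), or 2.32-fold, with an adjusted p of 3.1e-11 (edgeR's quasi-likelihood test). The log2 ratio was 1.13 for WD over WS (1.09 to 1.17) and 1.30 for KD over KS (1.26 to 1.33). On total counts the log2 fold change was 1.53, with single ratios of 1.41 and 1.66.

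Fbxo30 encodes MUSA1, an F-box protein known to be restrained by BMP signalling in muscle. It stood at 20.3 CPM in WS (472 counts), 21.9 CPM in KS (651 counts), 58.4 CPM in WD (1906 counts) and 55.4 CPM in KD (1714 counts). Sham and denervated libraries again did not overlap. The log2 fold change was 1.43 ± 0.09 (SE), or 2.69-fold, with an adjusted p of 4.6e-11 (edgeR's quasi-likelihood test). The log2 ratio was 1.52 for WD over WS (1.38 to 1.67) and 1.34 for KD over KS (1.21 to 1.47). The total-count scaling gave 1.75, with single ratios of 1.80 and 1.69. Among all genes tested, both sham libraries lay below both denervated ones in 38.3% and above both in 36.6%, so an order without overlap is frequent here. Past a log2 ratio of 1 in either direction were 14.8% of genes in WD over WS and 13.6% in KD over KS.

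**Figure D1:**
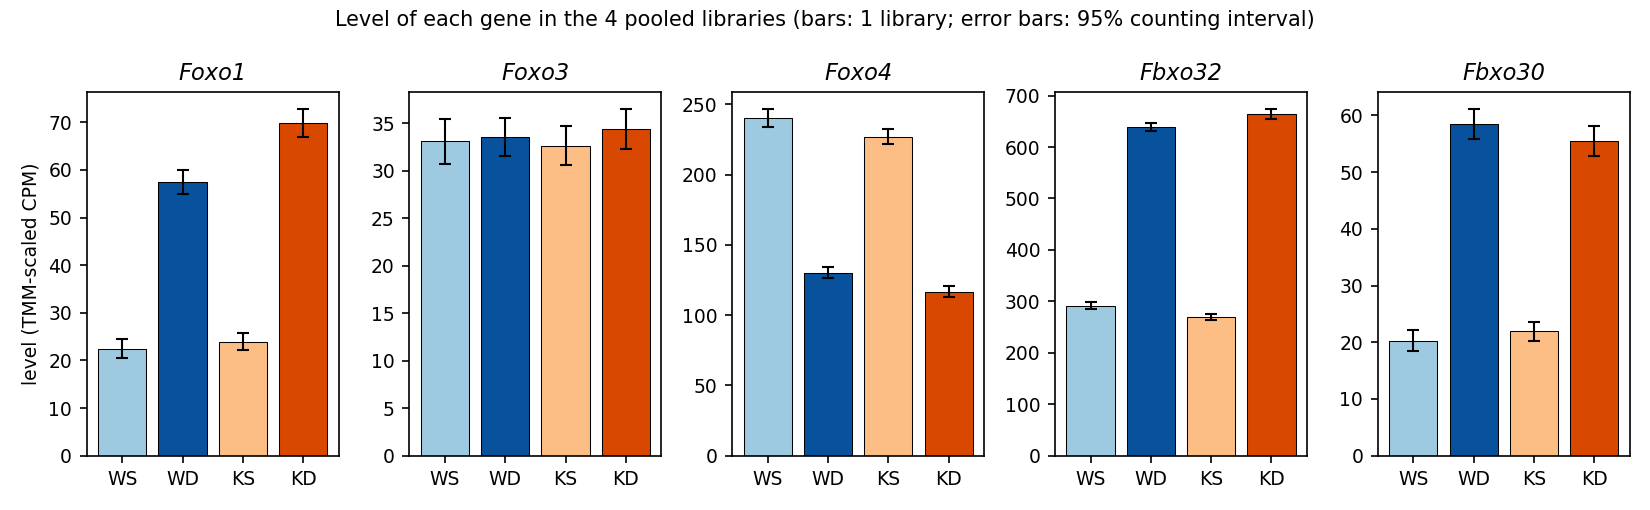
Level of each gene (TMM-scaled CPM, y axis from 0, a separate scale per gene) in the 4 pooled libraries; each bar is 1 library and the error bars are 95% counting intervals. Foxo1, Fbxo32 and Fbxo30 are high in WD and KD, Foxo4 is high in WS and KS, and the bars of Foxo3 lie between 32.6 and 34.4 CPM.

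The genotype effect asks whether FGF21KO muscle differed from WT muscle over both surgeries. None of the 5 genes was called for genotype by edgeR's quasi-likelihood test, DESeq2's Wald test or limma, and in the first of these 0.168% of all genes were called and 0.573% passed on the p-value alone. Foxo1 alone had an unadjusted p-value under 0.05, with a log2 fold change of 0.20 ± 0.09 (SE) and an adjusted p of 0.590 (edgeR's quasi-likelihood test). The other log2 fold changes were 0.01 for Foxo3, −0.12 for Foxo4, −0.03 for Fbxo32 and 0.00 for Fbxo30, with adjusted p-values from 0.764 to 0.997 (edgeR's quasi-likelihood test). On total counts alone the values for Foxo3 and Fbxo30 were on the other side of 0, at −0.03 each.

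The libraries of one surgery were also set side by side, as single ratios with no test. In sham muscle the log2 ratio KS over WS was 0.09 (−0.07 to 0.25) for Foxo1, −0.02 (−0.16 to 0.12) for Foxo3, −0.08 (−0.13 to −0.03) for Foxo4, −0.11 (−0.16 to −0.06) for Fbxo32 and 0.11 (−0.06 to 0.28) for Fbxo30. In denervated muscle the log2 ratio KD over WD was 0.28 (0.19 to 0.37) for Foxo1, 0.04 (−0.09 to 0.16) for Foxo3, −0.16 (−0.22 to −0.09) for Foxo4, 0.06 (0.03 to 0.08) for Fbxo32 and −0.08 (−0.17 to 0.02) for Fbxo30. Scaling to total counts gave 0.01 for Foxo1, −0.10 for Foxo3, −0.16 for Foxo4, −0.19 for Fbxo32 and 0.03 for Fbxo30 in the sham pair. None of these ratios reached 1 in size, as 2.04% of genes did in the sham pair and 1.56% in the denervated pair. The highest of them, Foxo1 in denervated muscle, corresponds to 1.21-fold.

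The size of the denervation response, as the log2 ratio of KD over KS minus that of WD over WS, could not be tested, since it is the only residual of the model. For Foxo1 the difference was 0.19 (0.006 to 0.378) and for Fbxo32 it was 0.16 (0.110 to 0.219), both larger in FGF21KO muscle. For Fbxo30 it was −0.19 (−0.382 to 0.008). For Foxo3 it was 0.06 (−0.126 to 0.240) and for Foxo4 −0.07 (−0.156 to 0.008). With total-count scaling the differences were 0.27 for Foxo1, 0.13 for Foxo3, 0.003 for Foxo4, 0.24 for Fbxo32 and −0.11 for Fbxo30, so that of Foxo4 lay on the other side of 0. With TMM scaling the counting interval left out 0 for Foxo1 and Fbxo32, as it did for 29.3% of all genes. A larger absolute difference than that of Foxo1 was seen in 46.4% of genes, than that of Fbxo32 in 52.2% and than that of Fbxo30 in 47.3%. Beyond Foxo3 were 81.9% of genes and beyond Foxo4 76.8%, so the 5 genes sat near the middle of the distribution or closer to 0. Each value rests on 4 libraries without replicates.

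**Figure D2:**
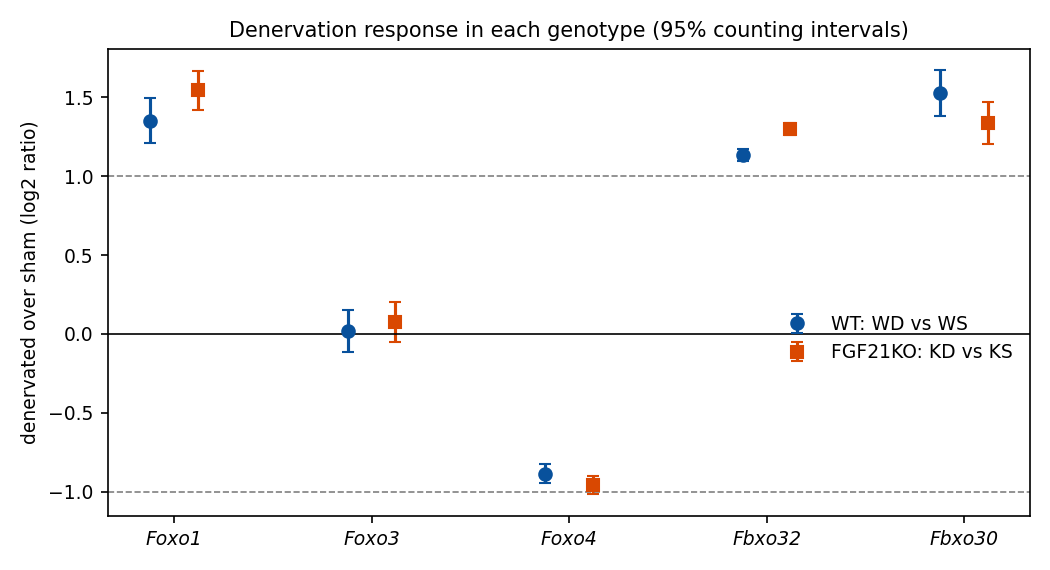
Log2 ratio of the denervated over the sham library for each gene, in WT (circles) and FGF21KO (squares), with 95% counting intervals; dashed lines mark 1 and −1. Foxo1, Fbxo32 and Fbxo30 lie above 1 in both genotypes, Foxo3 near 0, and Foxo4 between −0.88 and −0.96.

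Levels of different genes were compared per kilobase of annotated exon (GENCODE M21), which is not the annotation the counts were made with. Among the FoxO genes, Foxo4 had the highest level per kb in each library, at 75.9 CPM per kb in WS, 71.8 in KS, 41.1 in WD and 36.9 in KD. Foxo1 stood at 2.59 CPM per kb in WS, 2.76 in KS, 6.63 in WD and 8.05 in KD, and Foxo3 at 4.47 in WS, 4.53 in WD and 4.65 in KD, close to its level in KS. The order of Foxo1 and Foxo3 therefore differed by surgery, with Foxo3 above Foxo1 in both sham libraries and below it in both denervated ones. Of the ligases, Fbxo32 stood at 41.8 CPM per kb in WS, 38.7 in KS, 91.6 in WD and 95.2 in KD, far above Fbxo30, which ran from 3.90 in WS to 11.2 in WD.

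The make-up of the FoxO transcripts moved with surgery in both genotypes. By level per kb, Foxo4 took 91.5% of the sum of the 3 genes in WS and 90.9% in KS, against 78.7% in WD and 74.4% in KD. Foxo1 took 3.13% in WS and 3.49% in KS, against 12.7% in WD and 16.2% in KD. The summed FoxO level per kb was 83.0 CPM per kb in WS and 79.0 in KS, against 52.3 in WD and 49.6 in KD, so the sum was lower in denervated muscle while Foxo1 was higher. By raw counts, with no length correction, Foxo1 took 7.60% of FoxO counts in WS (Wilson 95% interval 6.998 to 8.25), 26.0% in WD (25.0 to 27.0), 8.43% in KS (7.86 to 9.04) and 31.6% in KD (30.5 to 32.7).

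**Figure D3:**
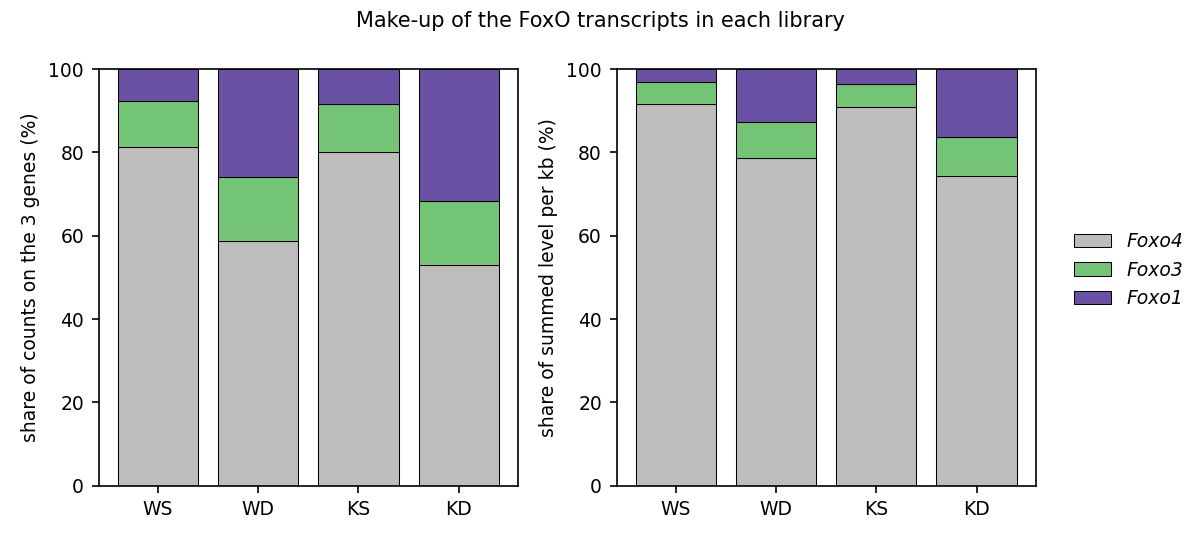
Share of Foxo1, Foxo3 and Foxo4 in each library, as a percentage of the counts on the 3 genes (left) and of their summed level per kb (right); each stacked bar is 1 library. Foxo4 is the main part of every bar, and the Foxo1 part grows from 3.13% in WS to 12.7% in WD and from 3.49% in KS to 16.2% in KD on the right.

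Ratios of 2 genes within a library do not depend on the scaling between libraries. The count ratio of Foxo1 to Foxo4 was 0.0936 in WS, 0.105 in KS, 0.442 in WD and 0.598 in KD. The 4 counting intervals did not overlap between sham and denervated. Those of WD (0.418 to 0.466) and KD (0.567 to 0.630) did not overlap each other either. Foxo1 to Foxo3 gave 0.679 in WS, 0.733 in KS, 1.71 in WD and 2.03 in KD. Fbxo32 to Foxo1 gave 12.96 in WS, 11.3 in KS, 11.1 in WD and 9.52 in KD, and Fbxo32 to Fbxo30 gave 14.4, 12.3, 10.9 and 11.98 in the same order. Both ratios of Foxo1 to another FoxO gene were higher in each denervated library than in each sham library, and the ratio of Fbxo30 to Foxo1 ran from 0.794 in KD to 1.02 in WD. The profile of Foxo1 over the 4 libraries, as centred log2 CPM, lay at a Euclidean distance of 0.25 from that of Fbxo30 and 0.31 from that of Fbxo32, against 1.41 from Foxo3 and 2.39 from Foxo4.

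The 3 genes closest to each profile among the 11316 genes whose mean count reached 50 were Dmxl2, Impa2 and Mknk2 for Foxo1 (distances 0.017 to 0.045) and Pprc1, H1f0 and Ttf1 for Foxo3 (0.014 to 0.018). For Foxo4 they were Jph1, Ubxn2a and Rassf1 (0.017 to 0.042). Jph1 encodes junctophilin 1, a protein of the muscle triad. Before scaling for library depth it had 11496 counts in WS, 13914 in KS, 8649 in WD and 7348 in KD. After scaling its log2 ratio was −0.90 for WD over WS and −0.98 for KD over KS. For Fbxo32 they were Enox2, Ppfibp1 and Coro1a (0.049 to 0.061), and for Fbxo30 Riok2, Plekha7 and Hmgn2 (0.051 to 0.087). With 4 libraries many genes share a profile, and the distances are a description.

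RefSeq promoter sequences (GRCm38.p6) were matched for Foxo1, Foxo3 and Fbxo30 of the 5 genes. Those of Foxo1 and Foxo3 are shown because the one gene rose and the other did not pass the test. Each runs 5′ to 3′ on the gene's strand and ends before the first annotated transcript base, and capitals mark the E-box letters CANNTG, which read the same on both strands. Foxo1 is at chr3:52268087-52268335 on the + strand and Foxo3 at chr10:42276756-42276945 on the − strand.
Foxo1 promoter: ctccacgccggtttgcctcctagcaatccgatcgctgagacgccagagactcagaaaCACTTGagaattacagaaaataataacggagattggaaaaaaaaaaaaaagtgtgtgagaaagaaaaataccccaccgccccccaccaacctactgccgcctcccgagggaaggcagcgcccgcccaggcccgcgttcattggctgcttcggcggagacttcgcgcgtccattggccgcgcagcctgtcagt
Foxo3 promoter: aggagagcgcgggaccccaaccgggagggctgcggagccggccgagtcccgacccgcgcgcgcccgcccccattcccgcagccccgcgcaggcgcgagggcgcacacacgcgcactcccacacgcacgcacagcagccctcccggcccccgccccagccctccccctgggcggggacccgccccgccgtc
Over the full 250 bases before the RefSeq start, Foxo1 held 1 E-box and 20 CG pairs at 56.0% GC, and Foxo3 held 0 E-boxes and 31 CG pairs at 76.4% GC. Fbxo30 held 0 E-boxes and 40 CG pairs at 80.4% GC. Promoters of the tested genes had a median of 16 CG pairs and 60.0% GC, and 57.4% of them held the E-box letters. The FoxO site GTAAACA, searched as itself and as TGTTTAC on the other strand, was in 0 of these 3 promoters, in 2.1% of the 12495 promoters of tested genes and in 3.17% of all 32851. This search covers these letters in these windows alone.

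The study lists quantitative PCR primers for Foxo1 and Fbxo32, shown here for the part of each transcript they read. Each is given 5′ to 3′, and capitals mark bases that differ from the GENCODE M21 transcript at the best ungapped match.
Foxo1 forward primer: cccaggccggagtttaacc
Foxo1 reverse primer: gttgctcataaagtcggtgct
Fbxo32 forward primer: tgttacccaagGaAagagcagtatggA
Fbxo32 reverse primer: acggagcagctctctgggttAttg
Fbxo32 forward site: tgttacccaagAaGagagcagtatggG
Fbxo32 reverse site: acggagcagctctctgggttGttg
Both Foxo1 primers matched the Foxo1 transcript without a difference, at bases 548 to 566 and 659 to 679, in the coding part of exon 1 of 3, for a product of 132 bases. The Fbxo32 primers lay best at bases 1228 to 1254 and 1323 to 1346 of the Fbxo32 transcript, in the coding part of exons 8 and 9 of 9, with 3 differences in the forward primer, the last at its 3′ end, and 1 in the reverse primer. The sequencing counts do not use these primers.

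The regulators of FoxO factors were taken from a hand-written list of kinases, binding proteins and modifying enzymes, of which 28 were tested. At both criteria 0 were called in either direction by edgeR's quasi-likelihood test, and at the p-value alone 13 were higher, 5 lower and 10 neither, with a median log2 fold change of 0.21. Scaling to total counts gave 5 called higher and 0 lower, and 22 higher and 1 lower at the p-value alone. The median was then 0.53 beside 0.33 for all genes. For this and the following lists, all 13084 genes give the comparison. With TMM 6.8% were called higher and 6.15% lower, and 26.4% and 26.6% at the p-value alone. On total counts 1704 were called higher and 324 lower, and 6114 and 1674 at the p-value alone. The highest were Sgk3, a kinase related to AKT, and Mdm2, a ubiquitin ligase. Sgk3 stood at 8.77 CPM in WS, 11.1 in KS, 19.5 in WD and 19.6 in KD (log2 fold change 0.98), and Mdm2 at 71.9, 66.8, 126 and 126 CPM in the same order (0.86). The lowest were Ep300, an acetyltransferase, at 73.0, 66.8, 40.5 and 43.2 CPM (−0.74), and Skp2, an F-box protein, which rested on 11 to 20 counts per library and did not pass the test (−0.61, adjusted p = 0.284, edgeR's quasi-likelihood test). The kinases Akt1 (0.37) and Akt2 (0.74) were higher at the p-value alone. The 5 called higher on total counts alone were Sgk3 (1.30), Mdm2 (1.18), Prmt1 (1.13), Akt2 (1.06) and Sfn (1.02).

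Known FoxO targets numbered 34 tested genes, with Fbxo32 and Fbxo30 among them. Without these 2, 4 of 32 were called higher and 0 lower at both criteria, and 11 were higher, 12 lower and 9 neither at the p-value alone. The median log2 fold change of the 32 was 0.04, close to the 0.01 of all genes. The 4 called were Cdkn1a, a cell-cycle inhibitor, Gadd45a, a stress-response gene, Sesn3, a sestrin, and Ctsl, the lysosomal protease cathepsin L. Cdkn1a stood at 7.52 CPM in WS, 11.4 in KS, 366 in WD and 322 in KD (log2 fold change 5.17). Gadd45a stood at 27.8, 27.3, 708 and 707 CPM in the same order (4.68). In both genes the denervated libraries lay far above the sham libraries. Ctsl had a log2 fold change of 1.61 and Sesn3 of 1.62. With total-count scaling, 10 of all 34 targets were called higher and 0 lower, and at the p-value alone 21 were higher and 7 lower (13 and 12 with TMM), with a median of 0.38 (0.07 with TMM).

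Autophagy targets split in direction. Gabarapl1, an autophagosome protein, was higher at the p-value alone (0.95), as was the mitophagy receptor Bnip3 (0.44), while the kinases Ulk1 (−0.62), Ulk2 (−0.81) and Pink1 (−0.83) were lower. Map1lc3b (0.04) and Becn1 (0.09) did not pass the test, though both did on total counts (0.36 and 0.41). The lowest targets were Txnip, a thioredoxin-binding protein, and Sod2, the mitochondrial superoxide dismutase. Txnip stood at 620 CPM in WS, 670 in KS, 371 in WD and 341 in KD (−0.86), and Sod2 at 416, 420, 234 and 230 CPM (−0.85). The antioxidant enzyme Cat was higher (0.81). All of these kept their direction on total counts alone, where Cdkn1b (−0.31 by TMM scaling, 0.01 there) and Insr (−0.19 and 0.13) changed sign. Gabarapl1 (1.265) and Cat (1.12) passed the fold threshold under that scaling.

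Short promoter windows of listed genes that hold a searched motif are shown with the motif in capitals, 5′ to 3′ on the gene's strand, from RefSeq on GRCm38.p6. They are Txnip at chr3:96557825-96557853 (+ strand), Mdm2 at chr10:117710894-117710922 (− strand) and Akt1 at chr12:112675028-112675056 (− strand) for the FoxO site, and Irs2 at chr8:11008949-11008978 (− strand) and Ccng2 at chr5:93267546-93267572 (+ strand) for the insulin response element CAAAACAA, searched also as TTGTTTTG.
Txnip: ttggaggcctgGTAAACAagggccaagta
Mdm2: ggtttcgagcgGTAAACAcaaccgcgcgg
Akt1: atctaccctctTGTTTACactcctggtga
Irs2: agagtcacgtgTTGTTTTGctcttagttca
Ccng2: cgtcgcagactCAAAACAAaaacaagg
The FoxO site was in 1 of 31 promoters of the listed targets and in 2 of 33 of the listed regulators. For the insulin response element these counts were 2 of 31 and 0 of 33. It was in 1.54% of the promoters of tested genes and in 2.21% of all promoters. Among promoters of genes called higher after denervation, 2.45% of 858 held the FoxO site and 1.86% the insulin response element. The genes with these letters did not share a direction, with log2 fold changes of −0.86 for Txnip, 0.86 for Mdm2, 0.37 for Akt1, −0.84 for Irs2 and −0.09 for Ccng2, the last of which did not pass the test and was 0.23 on total counts. These matches are descriptions of the letters.

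Of 27 other ubiquitin ligase genes linked to muscle wasting, 0 were called higher and 2 lower, and at the p-value alone 7 were higher, 12 lower and 8 neither, with a median log2 fold change of −0.12. Scaling to total counts gave 3 called higher and 1 lower, 14 higher and 7 lower at the p-value alone, and a median of 0.19. Asb2, a cullin-binding ankyrin repeat protein, stood at 576 CPM in WS, 487 in KS, 200 in WD and 192 in KD (log2 fold change −1.43). Fem1a, another substrate receptor of cullin ligases, stood at 615, 622, 286 and 277 CPM (−1.14). On total counts Fem1a did not reach the fold threshold (−0.82), while Asb2 did (−1.12). Both were lower in each denervated library than in each sham library, opposite to Fbxo32 and Fbxo30. Of further F-box genes in this list, Fbxl22 (0.71) and Fbxw7 (0.28) were higher at the p-value alone and Fbxo31 was lower (−0.59). On total counts Fbxl22 passed the fold threshold (1.03). Fbxo21 (0.17) and Fbxo40 (0.14) did not pass the test but did on total counts (0.49 and 0.46).

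The core of the SCF ligase, into which Fbxo32 and Fbxo30 fit, had 21 tested genes with 0 called in either direction at both criteria, and 8 higher, 5 lower and 8 neither at the p-value alone (median log2 fold change 0.05). Scaling to total counts gave 15 higher and 2 lower at the p-value alone and a median of 0.37. The adaptor Skp1a stood at 221 CPM in WS, 229 in KS, 287 in WD and 286 in KD (log2 fold change 0.35), the scaffold Cul1 at 106, 110, 128 and 121 CPM (0.21) and the RING subunit Rbx1 at 79.9, 84.7, 57.8 and 62.2 CPM (−0.46). All 3 passed at the p-value alone, with Skp1a and Cul1 higher and Rbx1 lower in denervated muscle. Rbx1 did not pass on total counts alone (−0.14). The highest of the list were Cand1, an exchange factor for F-box proteins (0.58), and Uba3, an enzyme of the NEDD8 pathway (0.58), and the lowest were the ubiquitin-conjugating enzyme Ube2r2 (−0.86) and the muscle form Cand2 (−0.56), all 4 passing at the p-value alone. The shifts in this list stayed under those of Foxo1, Fbxo32 and Fbxo30 in size.

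Of 17 listed substrates of the atrophy ligases, 7 were tested and the others were not analysed here. None was called at both criteria by edgeR's quasi-likelihood test, and 2 were higher and 4 lower at the p-value alone, with a median log2 fold change of −0.40. On total counts 3 were higher and 2 lower, and the median was −0.08. Des (desmin) was higher, from 3775 CPM in WS and 3850 in KS to 5865 in WD and 5290 in KD (0.55), and Ppp3ca, the calcineurin catalytic subunit, was higher by 0.17. The fast-fibre proteins Tnni2 (−0.88) and Mylpf (−0.85) were lower. Eif3f stood at 142 CPM in WS, 158 in KS, 157 in WD and 136 in KD and did not pass the test (−0.04), while on total counts it did (0.28).

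Inputs to the atrophy programme other than FoxO had 16 tested genes, of which 5 were called higher and 1 lower, with a median log2 fold change of 0.44. At the p-value alone 10 were higher, 4 lower and 2 neither. Scaling to total counts gave 7 called higher and 0 lower, 12 higher and 1 lower at the p-value alone, and a median of 0.76. Runx1, a transcription factor known to be induced in denervated muscle, stood at 1.89 CPM in WS (44 counts), 1.78 in KS (53 counts), 166 in WD and 177 in KD (log2 fold change 6.55). Hdac4, a class IIa histone deacetylase, stood at 44.3, 41.5, 289 and 298 CPM (2.78), and Hdac5 of the same class at 82.3, 77.6, 38.3 and 33.7 CPM (−1.15). The other genes called higher were Tnfrsf12a, the TWEAK receptor Fn14 (2.21), and the NF-κB pathway members Nfkb2 (1.75) and Bcl3 (1.24, on 16 to 58 counts per library). Klf15, a glucocorticoid-responsive factor, was lower at the p-value alone (−0.45). On total counts Klf15 did not pass the test (−0.13) and Hdac5 did not reach the fold threshold (−0.84). None of the genes in any of these lists was called for genotype.

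**Figure D4:**
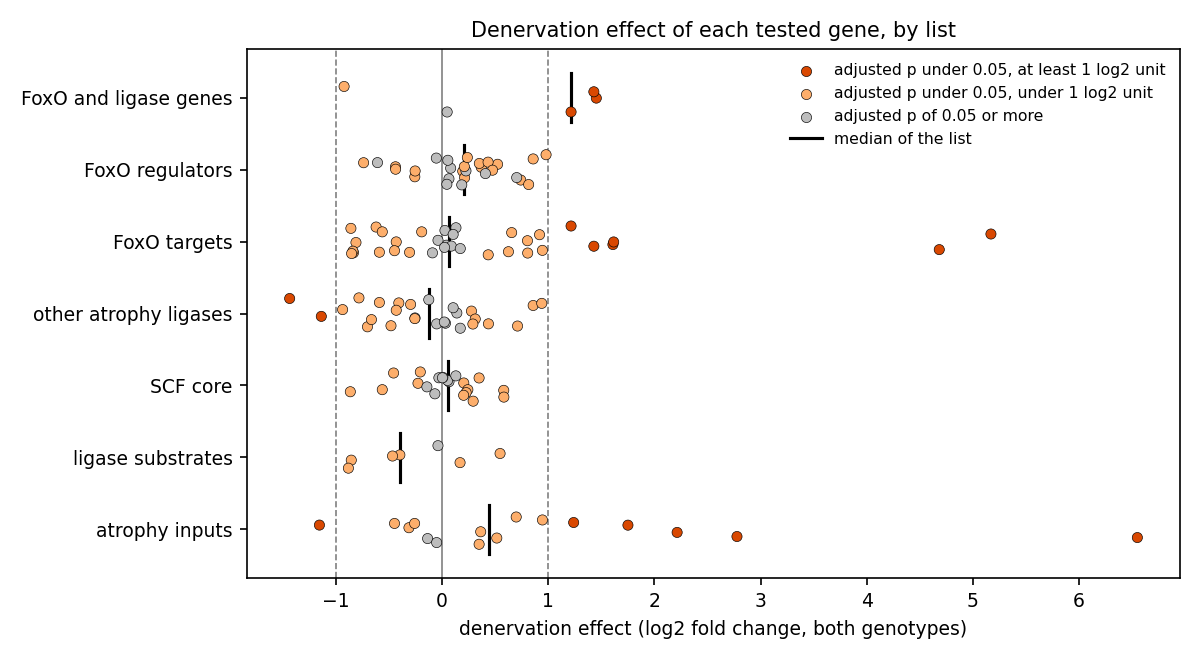
Denervation effect (log2 fold change over both genotypes, x axis) of each tested gene by list (y axis); points are single genes coloured by the test, black bars are list medians and dashed lines mark 1 and −1. With TMM scaling the medians run from −0.40 for the ligase substrates (−0.08 on total counts) to 1.22 for the FoxO and ligase genes, and the point farthest right is Runx1 at 6.55.

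Markers of other cell types moved with surgery as well. The summed level of 5 endothelial markers was 459 CPM in WS and 372 in KS against 206 in WD and 200 in KD, and 5 of 5 were lower at the p-value alone (3 at both criteria). The 5 macrophage markers summed to 7.26 CPM in WS and 7.98 in KS against 24.2 in WD and 22.3 in KD. At the p-value alone 4 of 5 were higher (3 at both criteria). In sham muscle each rested on 19 to 100 counts per library. Cd68 stood at 0.988 CPM in WS, 1.08 in KS, 10.7 in WD and 10.8 in KD, while Cd163 stood at 2.05 in KS and 2.23 in KD. The 5 markers of fibro-adipogenic progenitors summed to 585 and 573 CPM in sham muscle against 381 and 395 in denervated muscle. At the p-value alone 4 of 5 were lower (0 at both criteria). Of 3 satellite cell and 5 Schwann cell markers, 1 and 2 were tested, and Mbp of Schwann cells was lower at the p-value alone (−0.51). On total counts 5 of 5 endothelial markers were lower at the p-value alone (0 at both criteria), 5 of 5 macrophage markers were higher, 2 of 5 progenitor markers were lower and Mbp did not pass the test (−0.19). No tested marker was at 0 in any library. The part of these shifts in the levels of the FoxO and ligase genes was not tested.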

How the data were processed

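The authors sequenced poly(A) RNA of TA muscle with a stranded kit and deposited raw counts per gene. The authors also deposited a table named for FPKM, whose log2 values equal log2(count × 1 factor per library + 1) within 0.001 for 100% of entries. The submitters' processing notes name FastQC and the build GRCm39. The aligner and counter are not given in the sources used here. Libraries were grouped by their titles. TMM factors, computed over 13825 genes, were 0.922 (WS), 1.119 (WD), 0.870 (KS) and 1.115 (KD). The 13084 genes whose mean count reached 10 entered an additive model of genotype and surgery, tested with edgeR 4.0.16 (quasi-likelihood) in R 4.3.3. The common biological coefficient of variation was 0.068. Single ratios used log2 CPM with a prior count of 2. DESeq2 1.42.0 and limma 3.58.1 served as alternatives, with other scalings, filters and prior counts. The scripts were tested on simulated data.

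Depth and pooling limit precision, as intervals cover counting error only. Genes were named by rule, namely the 2 highest and 2 lowest of each list, the SCF partners Skp1a, Cul1 and Rbx1, and the 3 nearest profiles of each gene. Some results under this rule are not reported here. Further genes named were chosen after their values were seen. The genes and lists were chosen with earlier results of these data known. Levels per kb used exon lengths of GENCODE M21.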

Additional observations from a re-analysis of the deposited data

How the results depend on the processing

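Each of the 5 genes kept its direction and its side of the threshold for denervation under every alternative run (Foxo3 passed the p-value alone on total counts). The p-values changed in size. The adjusted p of Foxo1 was 2.6e-11 with TMM and 1.1e-54 with DESeq2 size factors (edgeR's quasi-likelihood test), at log2 fold changes of 1.45 and 1.44. The counts over all genes moved more than the calls of the 5 genes. On total counts alone, 1704 genes were called higher and 324 lower for denervation (890 and 805 with TMM), and 5 higher for genotype (8 with TMM). The genotype effect turned to −0.035 for Foxo3 and −0.033 for Fbxo30 under that scaling. With a mean count of at least 50, 7 genes were called lower for genotype (14 in the main run). Then 68 and 47 genes passed the fold in KS over WS and KD over WD (267 and 204 in the main run). DESeq2's Wald test called 13 genes for genotype (5 higher, 8 lower). Limma on the deposited log2 values called 1080 genes for denervation (550 higher, 530 lower) and 9 lower for genotype, and 1188, 1117, 29 and 25 genes passed the fold in WD over WS, KD over KS, KS over WS and KD over WD. With no fold threshold, 6924 genes were called for denervation and 75 for genotype. Without a fold threshold the criterion is looser by construction. The mean count filter of 50 kept the same scaling and only took genes out, so its numbers past the fold could not rise. For the other moves the cause was not tested. No analysis paired by mouse was possible because the 4 groups hold 1 pooled library each with no numbered replicates. That also leaves no replicate to take out. The genotype term in the model already sets sham against denervated muscle within each genotype. Differences between mice, and between genotypes in the size of the response, could not be measured with these libraries.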
